A study of Mus musculus with 6 samples.

Results

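The 38 Hox genes described here are 38 of the 21887 protein-coding genes that RefSeq places on the mouse chromosomes (assembly GRCm38.p6), and they were taken by name, 10 in the Hoxa cluster on chromosome 6, 10 in Hoxb on chromosome 11, 9 in Hoxc on chromosome 15 and 9 in Hoxd on chromosome 2. The cells were natural killer (NK) cells, lymphocytes that kill infected or transformed cells, from mouse spleens, grown for 5 days with the cytokine IL-2 at 500 ng/mL. One group of mice had an intact Tcf7 gene (Tcf7+/+, strain B6, here WT). The other had no intact copy (Tcf7-/-, strain B6.129 Tcf7Tm1Cle, here KO), so strain and genotype cannot be told apart. Chromatin of each genotype was precipitated with an antibody to H3K4me3, the trimethyl mark on histone H3 found at active promoters, or to Tcf1, the DNA-binding protein that Tcf7 encodes. There was 1 library for each antibody in each genotype, so differences could not be set against the spread between replicates and no test was run. Whether the cells of a library came from 1 mouse or several is not given in the sources used here.

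Hox genes encode homeodomain proteins that give cells their position along the axis of the embryo. They lie in clusters, in an order that follows where and when they are used, and genes at the same place in different clusters (a paralogue group) descend from 1 ancestor. Trithorax complexes that contain MLL proteins place H3K4me3 at Hox promoters, and Polycomb complexes keep them silent. In the blood system, Hox genes such as Hoxa9 and Hoxb4 are known for their use in stem and progenitor cells, and most are turned down as cells mature.

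The H3K4me3 lists held 13771 peaks in WT and 11074 in KO, with 6635272 and 7507763 tags (reads counted in peaks). The Tcf1 lists held 866 and 5139 peaks. Sequencing depth is unknown here. The targeted gene, Tcf7, had a Tcf1 peak of 123 tags in WT and none in KO, while its promoter held an H3K4me3 peak of 525 tags in WT and 535 in KO. A promoter mark does not check a deletion. All 10 NK cell marker promoters were marked by H3K4me3 in both libraries (among them Ncr1, Eomes and Prf1). None of the 6 B cell markers was marked in either. Weak peaks in WT alone lay at 2 of 8 T cell markers (Cd3e with 64 tags and Cd3d with 35), 1 of 7 myeloid markers (Cd14, 95) and 1 of 8 stromal markers (Twist1, 56). Of 4 erythroid markers, Klf1 was marked in both libraries, with 264 and 227 tags. The part of other cells in the values below was not tested.

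Most Hox promoters carried no H3K4me3 peak. A gene was called marked when a peak came within 1 kb of its transcription start site (TSS). In WT, 3 of 38 Hox genes were marked (7.89%), Hoxa4, Hoxb4 and Hoxd8, against 53.7% of the 17492 genes with a tabulated TSS. In KO, 2 of 38 were marked (5.26%), Hoxa4 and Hoxb4, against 48.2%. Marking in WT alone was seen at 1 Hox gene, Hoxd8, and at 5.66% of all genes, and marking in KO alone at 0 Hox genes and at 0.166% of all genes. The other 35 Hox genes had no peak called at the TSS in either library. Of the 38 Hox genes, 22 have a tabulated TSS, and Hoxa4 is not among them. For 14 of the unmarked genes the TSS was not known, and both ends of the gene were examined. By cluster, 1 of 10 Hoxa genes, 1 of 10 Hoxb genes, 0 of 9 Hoxc genes and 1 of 9 Hoxd genes were marked in WT. In bulk chromatin, a mark in few cells and a weak mark in many cells cannot be told apart.

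**Figure D1:**
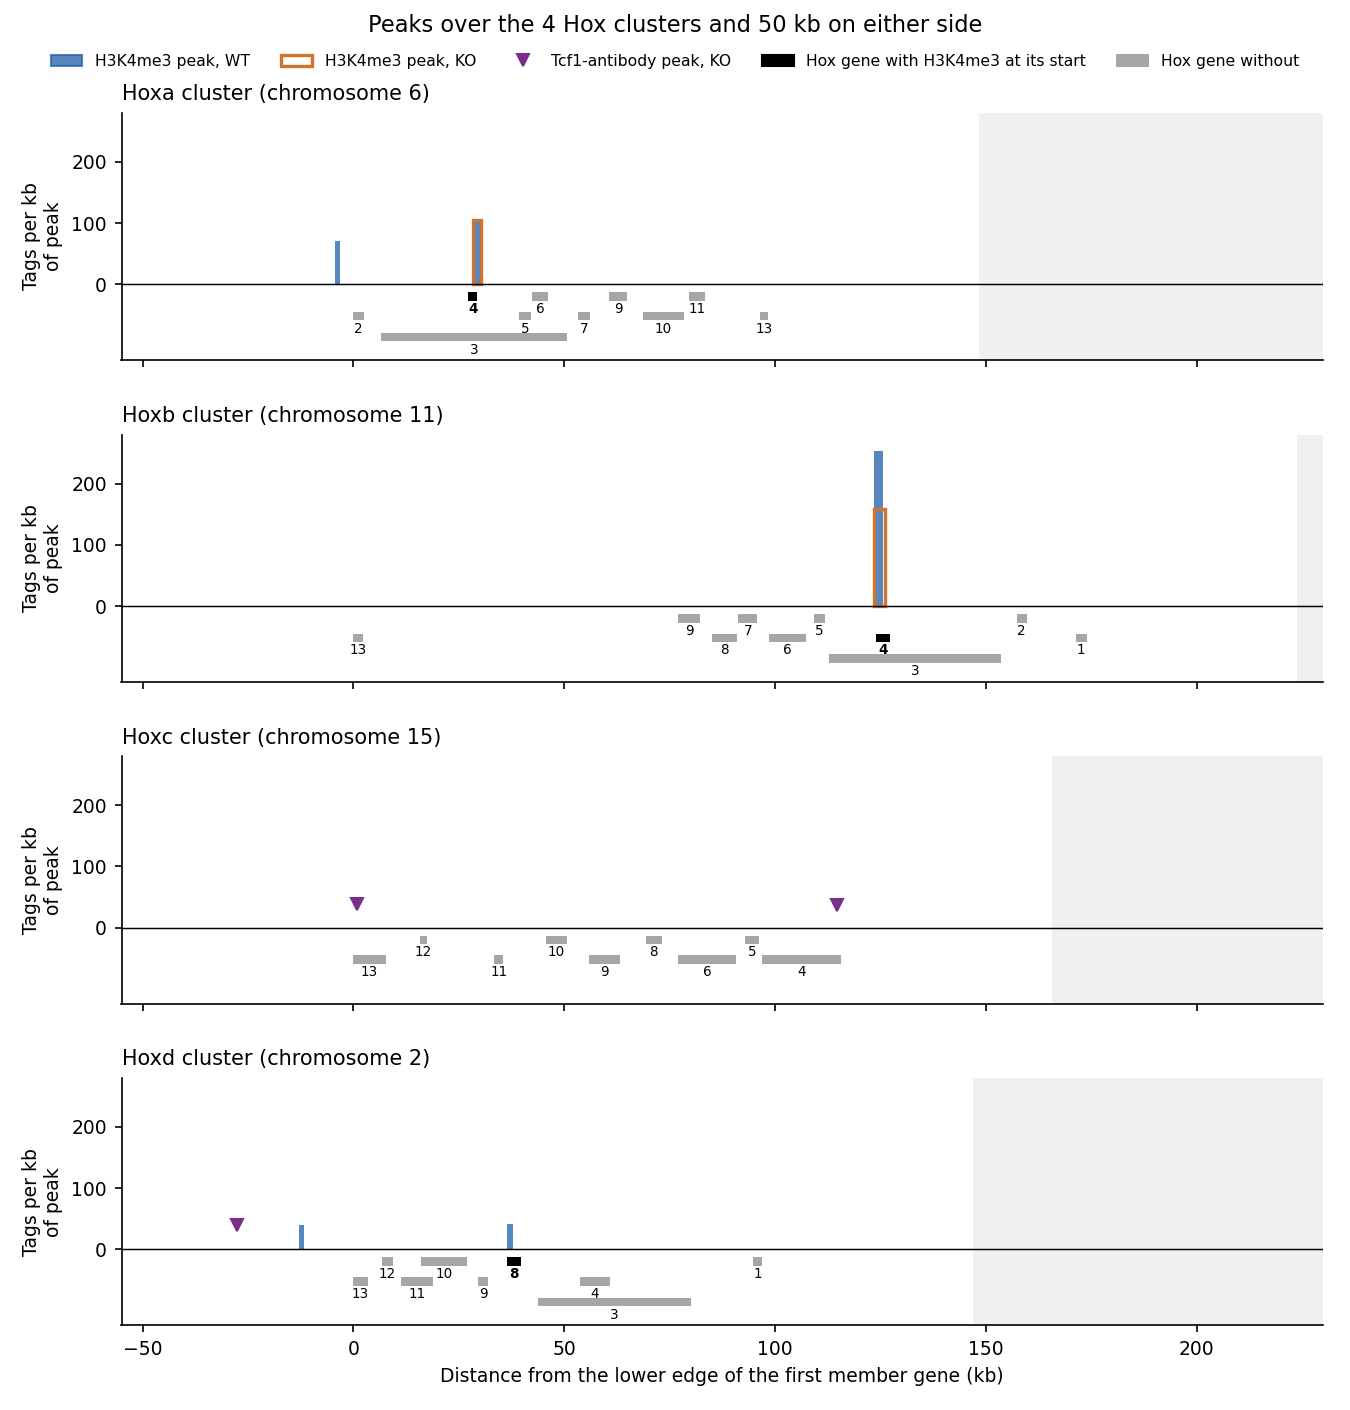
Peaks over each Hox cluster, by distance in kb from the lower edge of its first member (x axis). Box height is tags per kb of peak for H3K4me3 in WT (filled) and KO (outline), triangles are Tcf1-antibody peaks in KO at their tags per kb, genes are drawn below with their number (black where marked), and grey areas are more than 50 kb outside the cluster. Hoxa4 and Hoxb4 have peaks in both libraries, Hoxd8 in WT alone, and Hoxc has no H3K4me3 peak.

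Both genes marked in the 2 genotypes, Hoxa4 and Hoxb4, belong to paralogue group 4, whose other members, Hoxc4 and Hoxd4, had no peak. Hoxb4, a homeodomain factor known for promoting the growth of blood stem cells, held the peak with the most tags among the clusters in both libraries. In WT this peak ran on chromosome 11 from 96317789 to 96320044 (2256 bp) and held 571 tags, 253.1 per kb. In KO it ran from 96317763 to 96320515 (2753 bp) and held 438 tags, 159.1 per kb. The KO peak was thus wider and held fewer tags. In both libraries it covered the TSS of Hoxb4 at 96318267 (gene from 96318267 to 96321638). The authors' fold enrichment over the peak caller's background was 57.76 in WT and 18.41 in KO, and their score was 3100 and 1045.75. The median fold over all H3K4me3 peaks was also lower in KO, 18.38 against 30.82 in WT, so raw folds are not on 1 scale. Of all marked genes, 75.4% had a lower fold in WT and 41.1% in KO. By tags, 56.5% of marked genes had fewer in WT and 27.5% in KO. By both measures Hoxb4 ranked higher among marked genes in WT than in KO. These ranks are over unlike sets, 9393 marked genes in WT and 8432 in KO. Most of the weakest WT promoters are absent from the KO set, and how far this moves a rank was not tested.

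The promoters of group 4 that are tabulated are shown because they hold the contrast between a marked gene and its unmarked paralogues. They are the 250 bases before the TSS from RefSeq (GRCm38.p6, plus strand), with CG dinucleotides in capitals. In most genes a CG-rich promoter is more often marked, but the 12 tabulated Hox start sites richest in CG had no peak. Hoxb4 (chr11:96318017-96318266) has 14 CG in these bases, Hoxc4 (chr15:103034145-103034394) has 8 and Hoxd4 (chr2:74721728-74721977) has 3.
Hoxb4: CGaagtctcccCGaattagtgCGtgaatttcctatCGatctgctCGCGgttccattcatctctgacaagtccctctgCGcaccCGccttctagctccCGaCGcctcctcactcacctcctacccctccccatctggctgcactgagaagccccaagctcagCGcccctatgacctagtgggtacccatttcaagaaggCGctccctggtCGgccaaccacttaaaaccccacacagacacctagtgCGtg
Hoxc4: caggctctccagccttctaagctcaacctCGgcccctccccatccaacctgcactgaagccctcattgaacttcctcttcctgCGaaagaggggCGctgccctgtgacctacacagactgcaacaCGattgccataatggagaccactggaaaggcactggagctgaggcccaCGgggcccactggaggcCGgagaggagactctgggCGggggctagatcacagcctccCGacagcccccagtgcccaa
Hoxd4: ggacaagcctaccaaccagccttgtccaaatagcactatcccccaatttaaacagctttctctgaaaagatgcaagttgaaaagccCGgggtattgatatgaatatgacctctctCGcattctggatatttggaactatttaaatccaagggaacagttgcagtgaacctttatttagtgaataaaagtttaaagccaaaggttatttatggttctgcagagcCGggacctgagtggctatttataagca

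Hoxa4 was marked at a lower level. Its peak ran on chromosome 6 from 52190886 to 52192788 in WT (1903 bp, 196 tags, 103.0 per kb) and from 52190745 to 52192803 in KO (2059 bp, 216 tags, 104.9 per kb). The peak covered the 5' end of the gene (52189682 to 52191703, minus strand) in both libraries. It also lies inside the long RefSeq span of Hoxa3, whose tabulated TSS is 20.28 kb from the nearest WT peak. The fold enrichment was 22.99 in WT and 8.07 in KO, beside medians over all H3K4me3 peaks of 30.82 and 18.38. Of marked genes, 24.3% had a lower fold in WT and 7.9% in KO. Fewer tags were seen at 17.7% of marked genes in WT and at 9.5% in KO, so Hoxa4 was among the weaker marked promoters of both.

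Relative to other promoters, KO held fewer tags than WT at Hoxb4, and Hoxa4 stood within counting error of the median gene. Over the 8403 genes marked in both libraries the median ratio of KO to WT tags was 1.205 (0.27 as log2), and this was subtracted from every log2 ratio to centre it. The centred log2 ratio of KO over WT at Hoxb4 was -0.65 (95% counting interval -0.83 to -0.47). With tags divided by the width of the peak it was -0.99. A lower ratio was seen at 3.96% of genes. At Hoxa4 the centred log2 ratio was -0.13 (interval -0.41 to 0.16), with a lower ratio at 25.99% of genes. Neither gene was beyond 1 in size on the log2 scale, and of 8335 genes with at least 100 tags in 1 library, 1.33% lay below -1 and 0.096% above 1. The SD of centred ratios over genes was 0.29. The counting intervals (exact binomial) leave out the error between cultures, which 1 library per group cannot give.

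**Figure D2:**
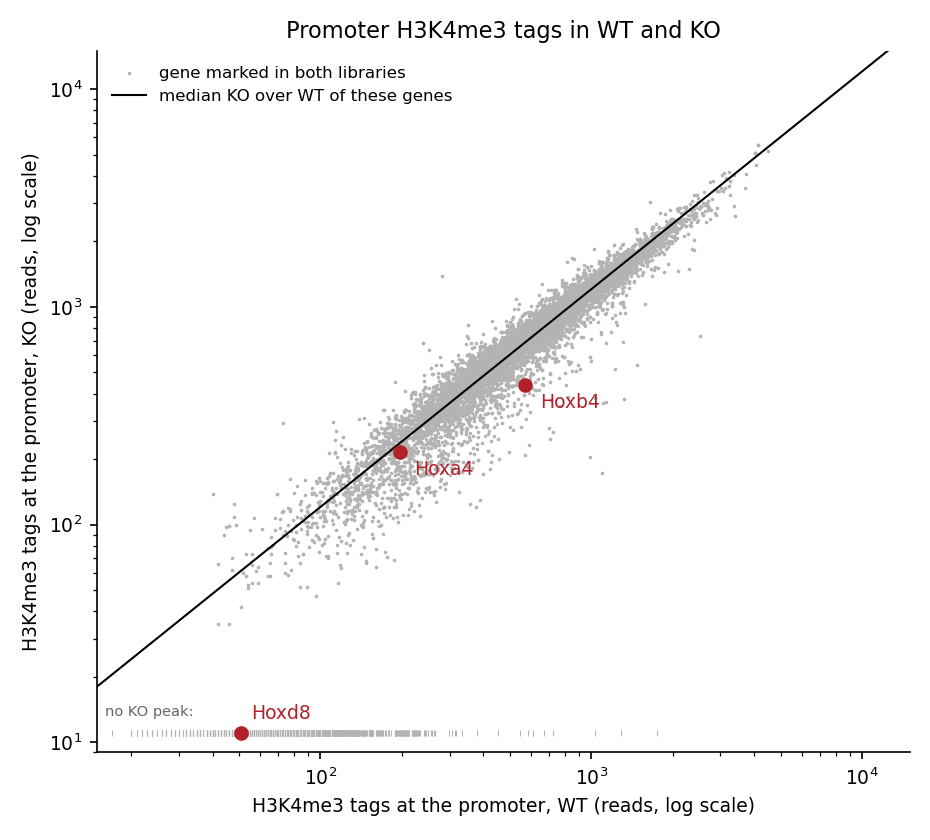
H3K4me3 tags at each promoter in WT (x axis) and KO (y axis), in reads on log scales, for genes of the promoter table (grey) and the 3 marked Hox genes (red). Ticks at the foot are genes with a WT peak alone, and the line is the median KO over WT. Hoxb4 (571 and 438 tags) lies below the line, Hoxa4 (196 and 216) close to it, and Hoxd8 (51 in WT) among those with no KO peak.

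Hoxd8, which encodes a homeodomain factor of the middle part of the Hoxd cluster, was marked in WT alone and weakly. Its peak ran on chromosome 2 from 74704781 to 74706029 (1249 bp) and held 51 tags (40.8 per kb), with a fold enrichment of 5.71 and a score of 114.97. It began 0.17 kb inside the gene (74704615 to 74707933, plus strand) and did not cover the TSS. Of marked genes in WT, 2.5% had fewer tags and 1.7% a lower fold, so Hoxd8 was near the floor of the list. At this level few WT promoters were also marked in KO. Of 562 genes with 51 to 100 tags in WT, 115 (20.5%) were marked in KO, against 1924 of 1969 (97.7%) with over 200 and at most 400 tags. The lowest count of any KO peak was 22 tags, so no peak in KO does not mean no mark. When the WT list was shortened to the length of the KO list by score, Hoxd8 was no longer marked and the count of Hox genes marked in WT alone was 0.

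The promoter of Hoxd8 is shown because it is the 1 tabulated Hox promoter with the Tcf/Lef core CTTTGAT (chr2:74704365-74704614, plus strand, GRCm38.p6, CG in capitals).
Hoxd8: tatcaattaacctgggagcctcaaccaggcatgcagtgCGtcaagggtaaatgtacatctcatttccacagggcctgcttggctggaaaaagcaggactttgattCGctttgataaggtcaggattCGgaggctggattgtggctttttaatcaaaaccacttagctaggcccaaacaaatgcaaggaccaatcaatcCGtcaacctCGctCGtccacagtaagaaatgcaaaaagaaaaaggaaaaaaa

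The core was searched on both strands of the 300 bases around each TSS. It was found at 684 of 21263 coding promoters (3.22%) and at 1 of 24 Hox start sites. Hoxd8 holds it 2 times on the strand of the gene, from 153 to 147 and from 143 to 137 bases before the TSS, and 20 promoters (0.0941%) hold it 2 or more times. These are matches of letters, not measured sites. The nearest WT Tcf1 peak was 836.4 kb from Hoxd8.

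**Figure D3:**
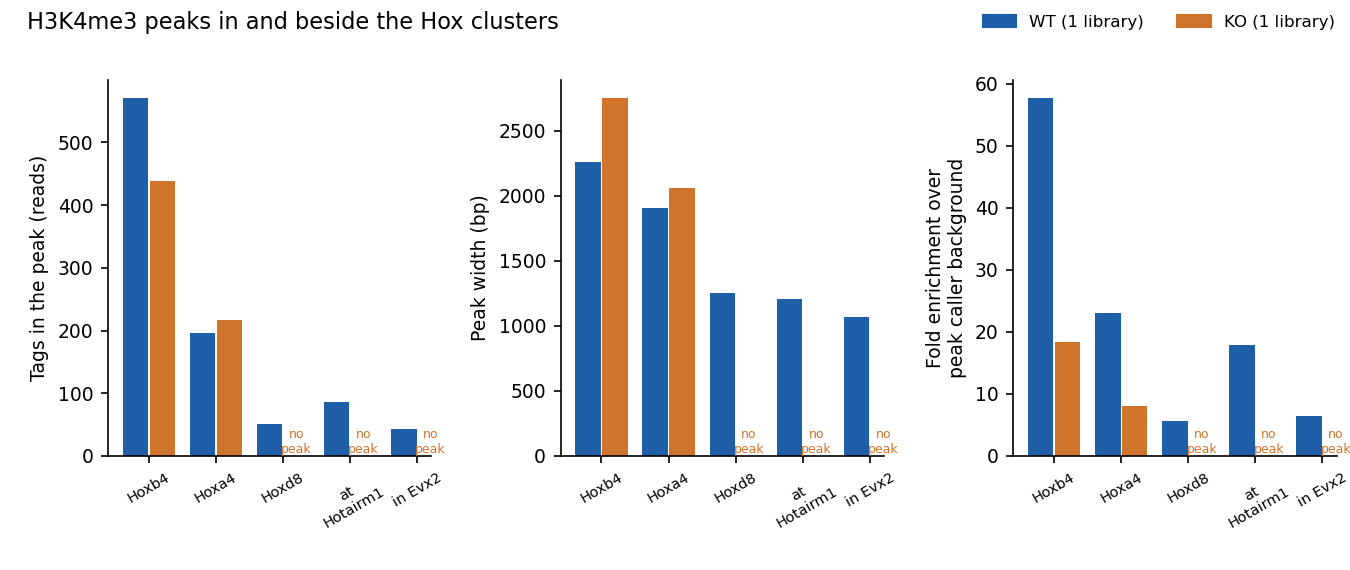
Tags in reads (left), width in bp (middle) and the authors' fold enrichment (right) of each H3K4me3 peak in or beside the clusters, with 1 bar per library. Hoxb4 has 571 tags in WT and 438 in KO, and the peaks at Hoxd8, at Hotairm1 and in Evx2 were listed in WT alone. Over all H3K4me3 peaks the median fold was 30.82 in WT and 18.38 in KO.

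Within the clusters, H3K4me3 lay in separate peaks of 1249 to 2753 bp. Of marked genes, 51.7% had a narrower mark than Hoxb4 in WT and 72.0% in KO, and 34.6% and 41.0% a narrower one than Hoxa4. With 10 kb added on either side, peaks covered 3112 bp of Hoxa in WT and 2059 bp in KO, 2256 and 2753 bp of Hoxb, 0 and 0 bp of Hoxc, and 1249 and 0 bp of Hoxd. That is at most 2.63% of a cluster's length in either library. In Hoxa the genotypes differed by 1 peak. It was listed in WT alone, on chromosome 6 from 52157983 to 52159191 (1209 bp, 86 tags, fold enrichment 17.94), 3.23 kb beyond the 3' end of Hoxa2 and over the non-coding gene Hotairm1. With this peak counted, the centred ratio of tags over the Hoxa cluster was -0.65 (interval -0.92 to -0.39), on 282 tags in WT and 216 in KO, and -0.11 per kb of peak. Without the added 10 kb, which leaves out that peak, it was -0.13.

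A second WT peak beside a cluster lay inside Evx2, the homeobox gene next to Hoxd13, on chromosome 2 from 74655382 to 74656447 (1066 bp, 43 tags, fold enrichment 6.46). It was 11.78 kb from Hoxd13 and over 1 kb from the TSS of Evx2, so Evx2 was not called marked. Over the whole genome, 124 of 1339 WT peaks with 17 to 50 tags (9.26%) overlapped a KO peak, and 337 of 1524 with 51 to 100 tags did (22.1%). All WT peaks in or beside the clusters that KO lacked were in these ranges.

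The distance from a cluster to the next H3K4me3 peaks differed between clusters. It was not set against the spacing of peaks over the genome. Beyond Hoxa, the nearest peaks on either side were 148.9 kb away at Skap2 (346 tags in WT, 478 in KO) and 378.5 kb away in WT at Hibadh (302 and 361 tags). Beyond Hoxb they were 117.5 kb away in WT at Atp5g1 (376 and 553 tags) and 95.3 kb away at Skap1 (724 and 757), which encodes an adaptor of T cell signalling. Hoxc lay in a gap of 398.8 kb in WT and 439.5 kb in KO with no H3K4me3 peak. The peaks at its ends held 52 and 72 tags in WT, and 177 (Calcoco1) and 277 (Smug1) in KO. For Hoxd, the nearest peak above the cluster was 60.2 kb away in WT at Mtx2 (530 and 590 tags). The nearest below was the Evx2 peak in WT and, 88.6 kb away, that of Lnpk in KO (774 tags).

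The unmarked Hox genes included some that are known in blood progenitors, such as Hoxa9, while Hoxb4, also known there, was marked. Hoxa9, Hoxa10 and Hoxa7 were 34.58, 42.15 and 25.79 kb from the nearest WT peak, and Hoxa5, 11.8 kb. In the Hoxb cluster, no member other than Hoxb4 had a peak within 10 kb of an end, although the Hoxb4 peak lies inside the long RefSeq span of Hoxb3. Hoxb8, known for its use in myeloid progenitors, lay 35.88 kb away from one, and Hoxb13, apart from the rest of its cluster, 117.45 kb. The Hoxc genes were between 112.07 kb (Hoxc4) and 189.77 kb (Hoxc11) from the nearest WT peak. In the Hoxd cluster, Hoxd3 and Hoxd9 came nearest, 5.96 and 7.02 kb from the Hoxd8 peak in WT. Distances in KO differed little for Hoxa and Hoxb, except for Hoxa2 (5.64 kb in WT and 25.91 kb in KO). The peak nearest to Hoxb13 was that of Atp5g1, outside the cluster, in both libraries.

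The Hox promoters without a peak ranged from poor to rich in CG dinucleotides. Over 21263 start sites of coding genes, those marked in WT held a median of 22 CG dinucleotides in 300 bases, and those without a WT peak held 4. The 24 tabulated start sites of 22 Hox genes held a median of 14.5, from 4 to 45. The 12 Hox start sites with at least 15 CG belonged to 12 genes, and 0 were marked in either library, against 85.6% in WT and 77.6% in KO of all 9957 such start sites. They included Hoxa13 (45 CG), Hoxd13 (37), Hoxa5 (29), Hoxd1 (29), Hoxa6 (26) and Hoxd11 (25 at 1 of its start sites). At the low end, Hoxa9, Hoxd4 and the other start site of Hoxd11 held 4, and Hoxa2, Hoxa7 and Hoxc4 held 9, also without a peak. Of the marked genes, Hoxb4 held 14 and Hoxd8 held 6, within the range of the unmarked ones, and Hoxa4 was not tabulated. The limit of 15 CG thus lies just above Hoxb4. With at least 10 CG, 1 of 17 Hox start sites was marked in each library. Of all 12067 such start sites, 81.4% were marked in WT and 73.4% in KO. The 12 Hox start sites with at least 15 CG all lie in Hoxa and Hoxd. Among other developmental homeobox and paired box genes, 31 start sites of 24 genes held a median of 18 CG, and 6 were marked in WT. Hox promoters in a cluster are neighbours and not independent of each other, and CG content was compared after the peaks were known.

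**Figure D4:**
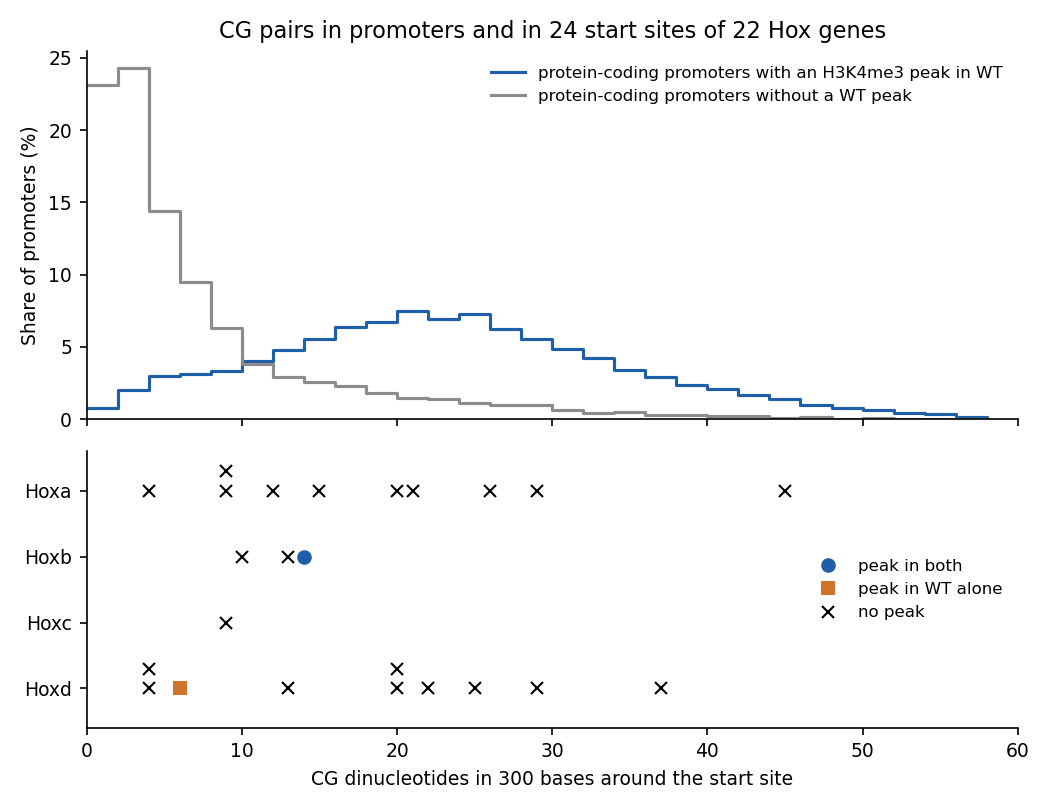
Top, share of coding promoters (y axis, %) by the number of CG dinucleotides in 300 bases (x axis), for those with and without an H3K4me3 peak in WT. Bottom, the same count for 24 Hox start sites by cluster, with symbols for the peak state, and equal counts stacked. The 12 Hox start sites with 15 or more CG lack a peak.

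Tcf1 was not detected near any Hox gene in WT. Of 38 Hox genes, 0 had a Tcf1 peak in the gene or within 50 kb in WT, against 4.39% of all 21887 genes, and the nearest lay 711.5 kb away, from Hoxb1. The closest WT Tcf1 peaks were 910.8 kb from Hoxa and 1451.1 kb from Hoxc. At a distance of 100 kb the count stayed 0. The 38 genes lie in 4 clusters, so they are not independent of each other in this count. In KO, whose mice have no intact Tcf7, 12 of 38 Hox genes (31.6%) had a peak within 50 kb, against 20.6% of all genes. These 12 genes share 3 peaks. One lay in Hoxc13 (chromosome 15, 102921798 to 102922260, 18 tags), 1 in Hoxc4 (103035527 to 103036046, 19 tags) and 1 lay 27.51 kb from Hoxd13 (chromosome 2, 74640444 to 74640716, 11 tags). Each had an FDR of 100% in the authors' list and a score below 100. With scores of at least 100 the count in KO was 0, and within 10 kb it was 2. No H3K4me3 peak of either library overlapped these 3 peaks. Over the whole Tcf1 lists the FDR reached 100% in both WT and KO, and the median score was 58.11 and 57.89.

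Within the Hox clusters lie microRNAs of the miR-10 family, which share a seed, and their 2 loci differed in the mark nearby. Mir10a lies 0.52 kb from the Hoxb4 peak in WT and 0.49 kb in KO, and the authors' lists name that peak for Hoxb4 and for Mir10a. Mir10b, inside the RefSeq span of Hoxd4, lies 20.04 kb from the nearest peak in WT and 99.33 kb in KO. The mature 5p sequences (RefSeq, GRCm38.p6, seed of bases 2 to 8 in capitals) are shown to set the locus beside the Hoxb4 peak against its twin. They have 1 difference, at base 12 from the 5' end.
miR-10a-5p: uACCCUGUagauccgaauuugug
miR-10b-5p: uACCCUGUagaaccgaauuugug

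Other developmental genes resembled the Hox genes in being mostly unmarked. Of 8 Cdx, ParaHox and Evx genes, 0 were marked in either library. Of 30 other developmental homeobox and paired box genes, 7 were marked in WT and 0 in KO. They included Irx5 (164 tags), Lhx2 (131), Irx3 (61), Dlx1 (48), Msx1 (44) and En1 (28). Of WT promoters with over 100 and at most 200 tags, the range of Irx5 and Lhx2, 71.3% were also marked in KO. That share was 20.5% at 51 to 100 tags, the range of Irx3. At up to 50 tags, the range of Dlx1, Msx1 and En1, it was 5.46%. Of 15 homeobox genes used in blood cells, such as Hhex and Zeb2, 13 were marked in both libraries. Their median centred ratio was -0.13, and the lowest were Tgif2 (-0.46), Zfhx3 (-0.44), Pou2f2 (-0.41) and Satb1 (-0.33), the last of which came to -0.02 per kb of peak.

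Genes whose products work with Hox proteins or act on Hox promoters were mostly marked. Among 9 TALE genes, which encode the homeodomain cofactors that bind DNA with Hox proteins, 5 were marked in both libraries and 3 in WT alone, against 48.0% and 5.66% of all genes. Those in WT alone included Meis1 (128 tags) and Pknox2 (53). Meis3 had a centred ratio of 0.74 (69 tags in WT and 139 in KO) that came to 0.15 per kb of peak, and Pbx4, Pbx2 and Pbx3 had -0.35, -0.23 and -0.19. Of 12 MLL/COMPASS and other activator genes (Ash1l, with no tabulated TSS, was left out), 10 were marked in both and Kdm6b, a demethylase of H3K27, in WT alone (218 tags). Ash2l had no peak at its annotated TSS, although a peak of each library lay inside the gene. The ratios of Hcfc1 (0.52), Kdm6a (-0.26), Men1 (-0.25) and Kmt2b (-0.18) were the furthest from 0, and that of Men1 was 0.30 per kb.

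The Polycomb list was marked throughout, with 21 of 21 genes marked in both libraries and a median centred ratio of -0.08. The list includes Ezh2, Eed and Suz12, which form the complex that places H3K27me3, and their ratios were 0.00, 0.13 and 0.04. Ring1 (-0.68), Cbx7 (-0.58), Phf1 (-0.30) and Cbx2 (-0.295) were lowest, and per kb of peak they came to 0.28, -0.01, -0.52 and -0.53. No gene of the TALE, activator, Polycomb or blood homeobox lists was beyond 1 in size. Of the 10 NK cell markers, 1 was, Klrd1 (-1.21), which came to 0.23 per kb of peak. Next in size were Gzmb (0.58), Klrk1 (-0.46) and Ncr1 (0.45). Of 9 markers of blood progenitors, 5 were marked in WT and 1 in KO, against 53.7% and 48.2% of all genes. The gene marked in both was Kit, with 458 and 360 tags (-0.62), and Meis1, Gata2 (79), Mecom (72) and Hlf (61) were marked in WT alone. Of WT promoters with 51 to 100 tags, the range of Gata2, Mecom and Hlf, 20.5% were also marked in KO. For over 100 and at most 200 tags, the range of Meis1, the share was 71.3%. Flt3, Cd34 and Procr were marked in neither.

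**Figure D5:**
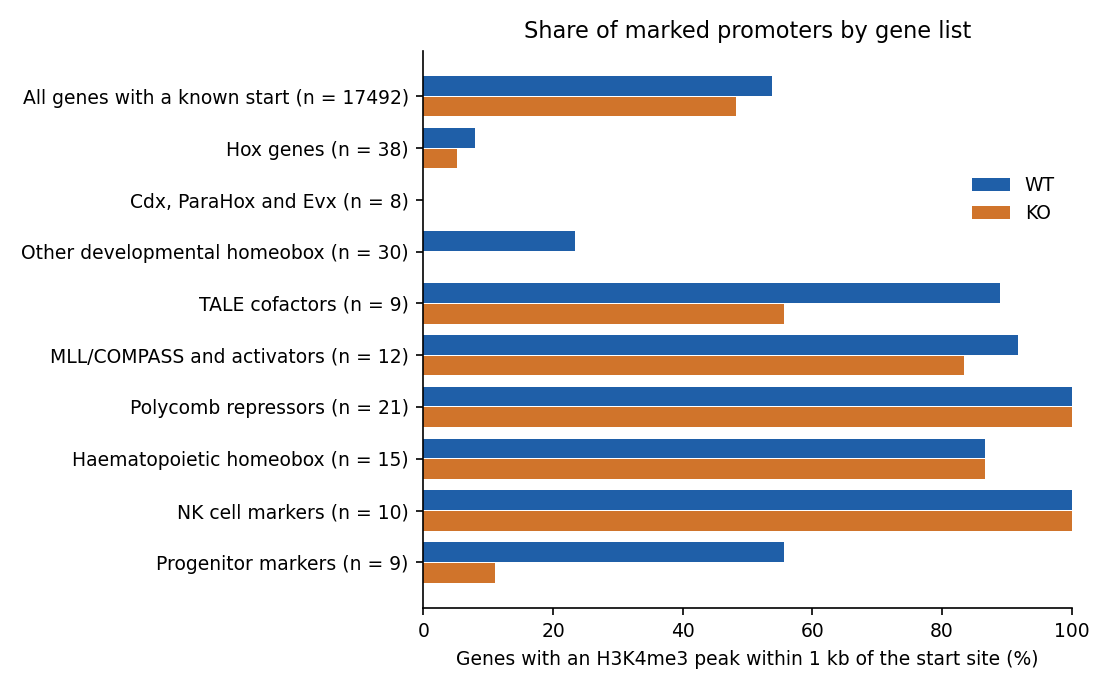
Share of genes marked by H3K4me3 at the TSS (x axis, %) for each list (y axis, with n measured), in WT and KO. Hox genes stand at 7.89% in WT and 5.26% in KO, against 53.7% and 48.2% of all genes with a tabulated TSS. Of the 38 Hox genes, 22 have a tabulated TSS.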

How the data were processed

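One library per genotype was deposited as a peak list for each antibody, and the 2 input libraries were not analysed here. Peaks came from MACS, version 1.4, and the notes also list Bowtie2 (2.1.0), per the submitters' processing notes. Those notes list GRCh37 beside mm10 and GRCm38 without saying what each was for, and positions were read as GRCm38. Each list belongs to 1 library, per the labels. The settings and control of peak calling are not given in the sources used here. The authors' lists give the tag count of each peak, not scaled to depth. The deposited score is the log10 of the p-value of the peak times minus 10, the deposited fold enrichment is a ratio over background, and the deposited FDR is in percent.

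Rows were reduced to distinct peaks and starts set to count from 1. The TSS and strand came from the RefSeq promoter table (22 Hox genes) or from an Ensembl feature in the lists (2). For 14 Hox genes with neither, both ends of the gene were examined, and no peak lay within 2.5 kb. All shares over genes with a tabulated TSS used 17492 genes. Tags of peaks within 1 kb of a TSS were summed, and log2 ratios of KO over WT had the median over genes marked in both libraries subtracted. No test was run, since each group holds 1 library. Tags were not corrected for PCR copies, so intervals (95%, exact binomial) cover counting error only.

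The members and lists were chosen with earlier results of these data known. The list of members holds 38 genes, and 1 further Hox gene, like some genes of the other lists, is not reported here. The rule for named genes took every member with its peaks, all Tcf1 peaks within 50 kb, and of other lists the genes marked in 1 library and up to 4 with the largest ratio among those with at least 100 tags in 1 library. Markers of other cell types were named by the same rule. Alternatives were TSS windows of 0 and 2.5 kb, an FDR limit of 1%, a score minimum of 100, equal lists, flanks of 0 and 50 kb, tags per kb, scaling by all tags, merged regions, Tcf1 distances of 10 and 100 kb, and Tcf1 peaks of 1 genotype alone. The ratio without a flank and a centre from more genes were added after the data were seen, as was the count of CG. The code was tested on simulated data. Scripts ran in Python 3.11.15 with scipy 1.17.1, pandas 2.3.3, numpy 2.4.6 and, for plots, matplotlib 3.10.9.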

Additional observations from a re-analysis of the deposited data

How the results depend on the processing

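Of 63 values under alternatives, 53 kept their place and 10 moved. A change of direction could be called only for the ratios of Hoxb4, the Hoxa cluster and the Hoxb cluster, and 0 of those changed. Counts that changed little were taken to keep their place. Among them, Hox genes marked in WT went from 3 to 2 with lists of equal length. Those with a KO Tcf1 peak went from 12 to 17 at 100 kb. The count of Hox genes marked in WT alone went from 1 to 0 with a TSS window of 0 kb and with lists of equal length. H3K4me3 width in Hoxa of WT was 1903 bp with no flank, and in Hoxd of WT 2315 bp with a flank of 50 kb. The centred ratio per kb of peak was -0.99 for Hoxb4, and likewise -0.99 for the Hoxb cluster, which holds that 1 peak. It was -0.11 for the Hoxa cluster, and -0.13 there with no flank. Hox genes with a KO Tcf1 peak numbered 2 at 10 kb and 0 with scores of at least 100. Peak lists leave out signal below the caller's threshold, so weak marks could not be compared. No paired analysis was possible because each group has 1 library and no test was run.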

Other observations

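Other non-coding genes of the clusters were not at a peak. Hotair, in the Hoxc cluster, lay 196.35 kb from the nearest H3K4me3 peak in WT and 214.2 kb in KO. The microRNA genes Mir196b, Mir196a-1 and Mir196a-2 lay 37.29, 52.52 and 173.03 kb from the nearest peak in WT.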
